A study of Mus musculus with 6 samples.

Results

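Epithelial cells and mesenchymal cells differ in their junctions, their cytoskeleton and the exons they include in their transcripts. The genes described here are 10 regulators of that difference, taken by symbol from the 23420 gene symbols counted in each library: the transcription factors Snai1, Snai2, Zeb1, Zeb2, Twist1, Twist2 and Prrx1, the intermediate filament gene Vim, and the RNA-binding splicing factors Esrp1 and Esrp2. The libraries came from the lacrimal gland bud of E14.5 mouse embryos of a mixed background, cut from frozen sections by laser capture. The 3 Control samples are titled WT, and the paper describes the controls of this experiment as Le-Cre. Le-Cre is a transgene with Cre recombinase active in the ocular surface ectoderm, from which the conjunctiva and the lacrimal gland epithelium derive. Over its experiments as a whole, the paper's controls were Le-Cre mice and Le-Cre mice heterozygous for the Pea3, Erm and Er81 alleles. The 3 Pea3 TKO samples carried the same Le-cre transgene with Pea3-/-, Ermfl/fl and Er81fl/fl, which remove the ETS factors Etv4 (Pea3), Etv5 (Erm) and Etv1 (Er81). Pea3 function was thus lost in every tissue of these embryos, whereas Erm and Er81 were deleted only in cells that had expressed Cre. Nothing in the labels says whether the samples of a group came from separate embryos, so p-values measure the spread between these samples, which may be technical in part.

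The Snail factors (Snai1, Snai2), the Zeb factors and the Twist factors bind a short DNA word called the E-box, and the Snail and Zeb proteins repress epithelial genes such as Cdh1, the gene of E-cadherin, during epithelial-mesenchymal transition (EMT). Prrx1 is a homeobox factor of limb and craniofacial mesenchyme, and Vim encodes the main intermediate filament of mesenchymal cells. Esrp1 and Esrp2 act on the opposite side, since they impose the epithelial pattern of exon choice, including the IIIb form of Fgfr2 that receives Fgf10, the inducer of the lacrimal gland bud. Snai2 is also known from the basal cells of stratified epithelia, where it is expressed without a full transition.

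The E-box that Snail and Zeb proteins recognise is CACCTG, read on either strand and so also as CAGGTG. It was searched in RefSeq promoter windows of 300 bases on GRCm38.p6, which run from 250 bases before a gene's start to 50 bases after it. Windows were at hand for 6 of the 10 members (Snai1, Zeb2, Twist1, Twist2, Prrx1 and Vim), and 1 of these 6, Snai1, held the word. Among all 27025 genes with a window the share was 22.6%. Of the 33 genes of a hand-written list of epithelial junction and polarity genes, 21 had a window, and 18 of these 21 (85.7%) held it. That list includes known targets of Snail and Zeb repression, so its share is not independent of how its genes were chosen. Cdh1 had no window. The windows below are that of Snai1, the only member with a match, those of Crb3 and Cldn7, a polarity gene and a claudin gene that rose in Pea3 TKO, and that of Ap1m2, an epithelial sorting adaptor gene that did not pass the test. Capitals mark the E-box in either orientation, and each window is written 5′ to 3′ along its gene.
Snai1, chr2:167537945-167538244, plus strand: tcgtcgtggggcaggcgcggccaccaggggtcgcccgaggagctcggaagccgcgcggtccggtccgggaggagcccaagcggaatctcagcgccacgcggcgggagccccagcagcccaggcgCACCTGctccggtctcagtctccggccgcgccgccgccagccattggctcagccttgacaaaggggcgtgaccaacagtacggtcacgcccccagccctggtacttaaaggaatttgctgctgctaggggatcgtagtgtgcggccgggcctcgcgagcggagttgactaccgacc
Crb3, chr17:57061951-57062250, plus strand: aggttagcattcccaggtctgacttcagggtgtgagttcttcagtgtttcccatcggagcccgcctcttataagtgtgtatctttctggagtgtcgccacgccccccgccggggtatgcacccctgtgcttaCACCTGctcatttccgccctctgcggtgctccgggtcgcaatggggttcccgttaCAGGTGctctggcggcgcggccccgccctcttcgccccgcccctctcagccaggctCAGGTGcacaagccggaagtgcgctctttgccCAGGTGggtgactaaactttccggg
Cldn7, chr11:69965171-69965470, plus strand: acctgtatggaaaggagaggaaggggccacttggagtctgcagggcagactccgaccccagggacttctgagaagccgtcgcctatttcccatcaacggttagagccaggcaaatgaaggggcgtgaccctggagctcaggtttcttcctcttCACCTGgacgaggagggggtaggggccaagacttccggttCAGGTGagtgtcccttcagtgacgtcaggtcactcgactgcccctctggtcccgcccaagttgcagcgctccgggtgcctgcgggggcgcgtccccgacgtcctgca
Ap1m2, chr9:21312284-21312583, minus strand: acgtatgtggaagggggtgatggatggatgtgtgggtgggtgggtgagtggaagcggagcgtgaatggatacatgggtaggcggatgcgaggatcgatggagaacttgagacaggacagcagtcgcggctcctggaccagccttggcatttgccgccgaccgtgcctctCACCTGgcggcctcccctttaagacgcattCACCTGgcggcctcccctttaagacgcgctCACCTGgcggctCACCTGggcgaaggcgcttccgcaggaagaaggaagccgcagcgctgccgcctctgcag
Snai1 held 1 match, which began 126 bases before the start, Crb3 held 4, Cldn7 held 2 in the window shown and Ap1m2 held 4. In the mesenchymal-state list 1 of 11 genes with a window (9.09%) had a match, and in the list of other EMT transcription factors 0 of 8. A second word, the ETS core CCGGAA on either strand, was found in Vim and Twist1, thus in 2 of the 6 members with a window (33.3%), against 16.7% of all genes. Its share was 37.5% in the other EMT transcription factors and 28.6% in the junction and polarity genes. It was 27.3% in the genes with Esrp-dependent exons and 28.6% in the other EMT splicing regulators. In the epithelial-state transcription factors and the mesenchymal-state genes it was 0. The Crb3 and Cldn7 windows shown hold this word too, unmarked. These matches describe letters in a window and were not compared with any measured binding.

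**Figure D1:**
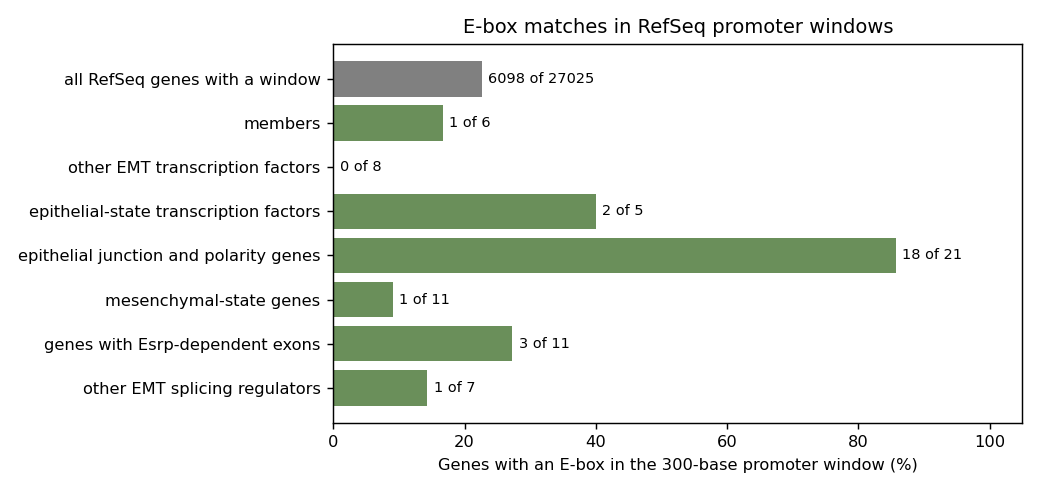
Share of genes with an E-box in the 300-base promoter window (x axis, percent) for all RefSeq genes with a window and for each list (y axis); the label on each bar gives the genes with a match and the genes with a window. The epithelial junction and polarity list, which includes known targets of Snail and Zeb repression, stands at 18 of 21 genes against 6098 of all 27025 genes.

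The libraries held between 14194775 and 17860140 counts, and 3 counts corresponded to 0.169 to 0.21 CPM, that is, counts-per-million normalized with the TMM factors of edgeR. Of the 13087 genes tested, 3268 (25%) passed an adjusted p of 0.05 in the edgeR quasi-likelihood test with Benjamini-Hochberg adjustment, 1783 (13.6%) higher and 1485 (11.3%) lower in Pea3 TKO. The targeted genes fell as labelled, Etv4 from 151 ± 29.1 to 19.5 ± 8.79 CPM, Etv5 from 1058 ± 127 to 139 ± 45.8 and Etv1 from 31.8 ± 2.79 to 9.52 ± 0.41 (mean ± SD, n = 3 each). Epithelial markers were abundant in all 6 libraries, with Epcam between 1201 and 1499.9 CPM and Pax6 between 184 and 486. The libraries differed in their content of mesenchymal transcripts. The summed level of 12 fibroblast and mesenchyme markers was 23.5, 36.3 and 132 CPM in Control replicates 1 to 3, and 414, 582 and 19.6 CPM in Pea3 TKO replicates 1 to 3. Of these 12 markers 10 were tested, and 2, Dcn and Lum, passed the test, both higher. In Pea3 TKO replicate 3, however, Dcn was at 2.41 and Lum at 2.06 CPM, within the range of the Control samples. The collagen gene Col3a1 had 2.99, 6.42 and 53.3 CPM in Control and 120, 213 and 2 in Pea3 TKO, Col1a1 ranged from 1.23 to 70.8 and Pdgfra from 0.176 to 11.9 in the same pattern of Pea3 TKO samples, and no library was free of all of them. Pecam1 of endothelium was at most 3.19 CPM and Csf1r of macrophages at most 11. Endothelial, macrophage, skeletal muscle, glia and melanocyte, and neuron markers summed to at most 35.1 CPM per list in any library. The test covered only 2 of 9 endothelial, 7 of 11 macrophage and 1 of 8 muscle markers. It also covered 4 of 9 glia and melanocyte and 1 of 4 neuron markers, and no tested gene of any of these lists passed. Tie1 and Emcn of endothelium, Myf5 of muscle, and Cdh19 and Tyrp1 of glia and melanocytes were at 0 in all 6 libraries. Embryo sex was not balanced either. Summed over Ddx3y, Eif2s3y, Kdm5d and Uty, the Y-linked level was 136 to 175 CPM in the Control samples and 139 in Pea3 TKO replicate 3, but at most 0.444 in Pea3 TKO replicates 1 and 2. Because Pea3 TKO replicate 3 stood apart in both respects, the members are given sample by sample. The fit without it is quoted only for some results, Twist1 and Twist2 among them. In bulk libraries such as these, fewer cells of a type and less RNA per cell cannot be told apart.

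Both splicing factors rose in Pea3 TKO, and of the 7 transcription factors only Zeb2, at a low level, passed the test. Snai2 and Vim were between 69.6 and 104 CPM in all 6 samples, and neither passed. In all, 3 of the 10 members passed an adjusted p of 0.05, Esrp1, Esrp2 and Zeb2, all 3 higher and none lower, against 25% of all genes tested. This share of 30% was near the background. All 10 members passed the low-count filter, Snai1 through its Pea3 TKO samples alone, since 0 of its 3 Control samples reached the level of 0.628 CPM that the filter uses. Zeb2 and Prrx1 reached that level in 3 Pea3 TKO samples but in only 2 Control samples. The filter asks for 3 samples, so on their Control samples alone neither would have been kept. Zeb1, Twist1 and Twist2 reached it in 2 Pea3 TKO samples, and in 1, 2 and 1 Control samples. The median log2 fold change of the members was 1.44, against 0.0094 for all genes tested, but it rests in part on such low genes. In 4 members, Snai1 among them, all Pea3 TKO samples lay above all Control samples, an arrangement found in 22.5% of all genes tested, and in no member did they all lie below (21.3% of all genes, 43.9% for both directions together).

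**Figure D2:**
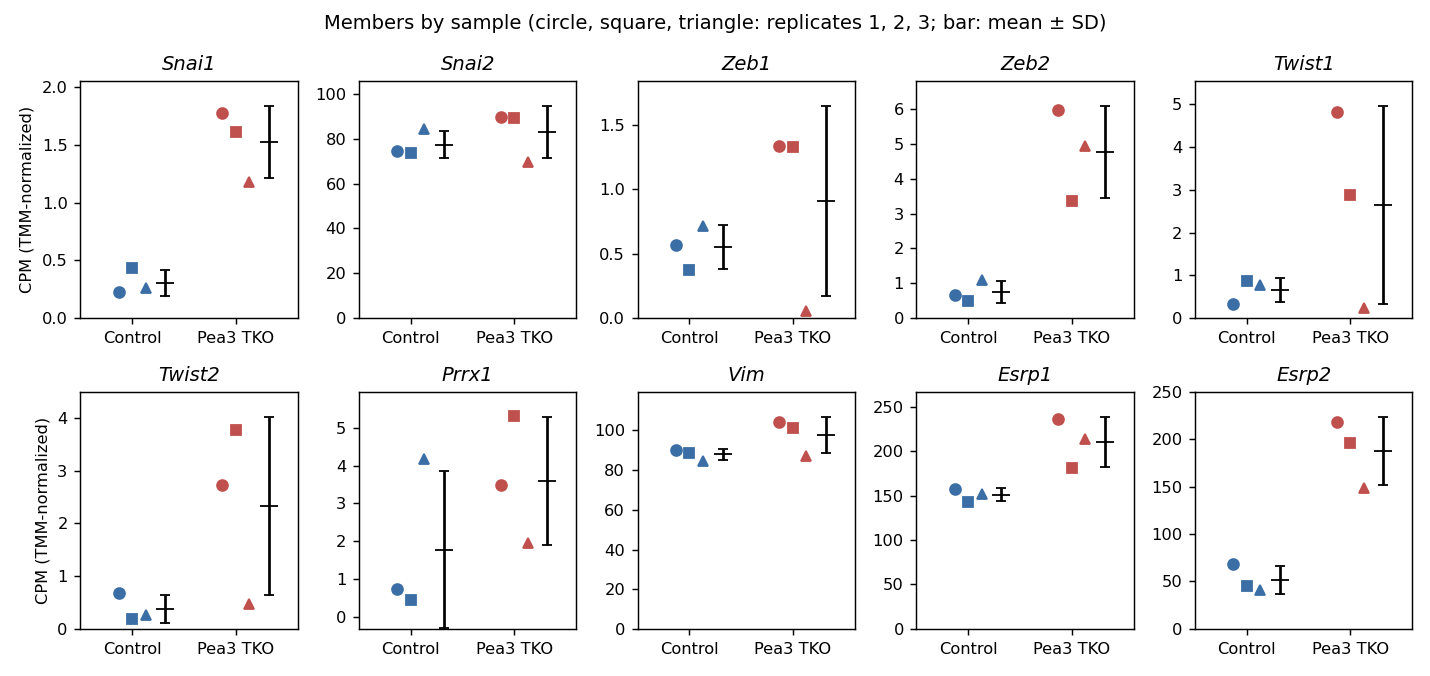
CPM of each of the 10 members (y axes, 1 panel per gene) in the 3 Control and 3 Pea3 TKO samples (x axis); circle, square and triangle are replicates 1, 2 and 3, and bars are mean ± SD. Snai1, Zeb2, Esrp1 and Esrp2 do not overlap between the groups, while in Twist1, Twist2 and Zeb1 the triangle of Pea3 TKO replicate 3 sits within or below the Control range.

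Esrp2, on chromosome 8 from 106130319 to 106136974 (GENCODE M21, GRCm38, as for all positions here), had 68.5, 44.7 and 41.4 CPM in Control replicates 1 to 3. In Pea3 TKO replicates 1 to 3 it had 218, 196 and 149 CPM. The lowest Pea3 TKO sample was thus above the highest Control sample. Esrp2 rose from 51.5 ± 14.8 to 188 ± 35.6 CPM (n = 3 each). The ratio was 3.64-fold, or 1.86 ± 0.21 (SE) on the log2 scale with a 95% interval from 1.39 to 2.34 (edgeR, adjusted p = 0.00045). It passed under every alternative tried, leave-one-out fits included, with log2 fold changes from 1.54 to 2.12. Esrp2 shares 219 (5.05%) of its 4340 exon bases with Nfatc3 and 119 (2.74%) with 1810019D21Rik, both on the opposite strand. No strand setting is stated for the counting, so reads in those bases cannot be told apart. Nfatc3 had a log2 fold change of 0.21 (adjusted p = 0.37), and 1810019D21Rik, at 3.89 ± 2.86 CPM in Control and 14.8 ± 7.86 in Pea3 TKO, one of 1.92 (adjusted p = 0.033).

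Esrp1, on chromosome 4 from 11331933 to 11386783, had 158, 143 and 152 CPM in the Control replicates and 236, 181 and 213 CPM in the Pea3 TKO replicates. The groups again did not overlap, though the step between them was smaller than for Esrp2. Its mean went from 151 ± 7.21 to 210.1 ± 28 CPM (n = 3 each). The ratio was 1.39-fold, or 0.48 ± 0.13 (SE) on the log2 scale (edgeR, adjusted p = 0.022). The call was lost in 3 of the 6 fits that left out 1 sample, with an adjusted p of 0.088 without Control replicate 2, 0.07 without Control replicate 3 and 0.06 without Pea3 TKO replicate 1, while the log2 fold change stayed between 0.39 and 0.58. It was also lost with the summed mesenchyme markers as a covariate, an alternative chosen after seeing the data (log2 fold change 0.50, adjusted p = 0.055). With Y-linked expression as a covariate the log2 fold changes were 0.51 for Esrp1 (adjusted p = 0.15), 2.71 for Zeb2 (adjusted p = 0.086) and 1.54 for Esrp2 (adjusted p = 0.013), so that 1 of the 10 members passed, as did 778 of all genes.

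The log2 ratio of Esrp1 counts to Esrp2 counts within a library, which does not depend on scaling between libraries, was 1.2, 1.68 and 1.88 in Control and 0.12, -0.12 and 0.52 in Pea3 TKO. Every Pea3 TKO ratio lay below every Control ratio, and the means differed by -1.41 on the log2 scale, a difference that this design cannot bring past the threshold (exact permutation test, two-sided p = 0.1, the smallest that 3 against 3 samples allow). Per kilobase of merged exon, Esrp1 stood at 23.9 ± 1.14 and Esrp2 at 11.9 ± 3.42 CPM per kb in Control. In Pea3 TKO Esrp1 had 33.3 ± 4.45 and Esrp2 43.3 ± 8.2 CPM per kb, and the ranges of the pair overlapped there (28.6 to 37.5 against 34.2 to 50.3). Over the longest coding transcript they had 54.4 ± 7.26 and 53.1 ± 10.1 CPM per kb in Pea3 TKO, so their order depends on the length used.

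Per kb of merged exon, Snai2 was the most abundant of the 7 transcription factors, at 38.3 ± 2.9 CPM per kb in Control against 0.41 ± 0.18 for the next, Twist1. On chromosome 16 from 14705852 to 14709385, it had 74.5, 73.5 and 84.1 CPM in the Control replicates and 89.7, 89.4 and 69.6 in the Pea3 TKO replicates. The groups overlapped, with Pea3 TKO replicate 3 the lowest of all 6 samples. The log2 fold change was 0.1 ± 0.14 (SE, adjusted p = 0.65), and its 95% interval from -0.22 to 0.42 leaves room for a rise or a small fall. Its paralog Snai1, on chromosome 2 from 167538195 to 167542814, had only 4, 7 and 4 reads in the Control libraries and 28, 23 and 20 in the Pea3 TKO libraries. In CPM this was 0.225, 0.436 and 0.26 against 1.78, 1.61 and 1.17, with no overlap. The log2 fold change of Snai1 was 2.28 ± 0.76 (SE, 95% interval 0.58 to 3.98), but its adjusted p of 0.054 did not pass. Since Snai1 entered the test through its Pea3 TKO samples alone, these values are a description. With no filter the adjusted p was 0.13, and by DESeq2 it was 0.06. With a filter of at least 1 CPM in 3 samples, which Snai1 also met through Pea3 TKO alone, it was 0.0475. The log2 ratio of Snai1 to Snai2 reads was -7.89 ± 0.51 in Control and -5.75 ± 0.11 in Pea3 TKO.

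Zeb2, on chromosome 2 from 44983632 to 45117395, encodes a zinc-finger homeodomain repressor of Cdh1. It had 0.676, 0.499 and 1.11 CPM in Control (12, 8 and 17 reads) and 5.97, 3.36 and 4.93 CPM in Pea3 TKO (94, 48 and 84 reads). All Pea3 TKO samples, replicate 3 included, lay above all Control samples. Zeb2 rose from 0.76 ± 0.31 to 4.75 ± 1.32 CPM (n = 3 each). The ratio was 6.22-fold, or 2.64 ± 0.6 (SE) on the log2 scale (edgeR, adjusted p = 0.011). Only 2 Control samples reached the filter level of 0.628 CPM, against 3 Pea3 TKO samples, so Zeb2 was kept through the group where it was high. With no filter the edgeR adjusted p was 0.0093. Across the fits without 1 sample the log2 fold change was 2.41 to 3 and the adjusted p 0.023 to 0.043. With the covariate of mesenchyme markers it was 2.58 (adjusted p = 0.036).

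Zeb1, on chromosome 18 from 5591860 to 5775467, is the closest relative of Zeb2 and did not pass the test. It had 0.564, 0.374 and 0.715 CPM in Control and 1.33, 1.33 and 0.0587 in Pea3 TKO, the last value from 1 read. Pea3 TKO replicates 1 and 2 lay above every Control sample and replicate 3 below all of them. The log2 fold change was 0.7 ± 1.01 (SE, adjusted p = 0.65), with an interval from -1.55 to 2.96 that is too wide to tell a rise from a fall. The within-library log2 ratio of Zeb1 to Zeb2 was -0.25, -0.39 and -0.61 in Control and -2.14, -1.31 and -5.82 in Pea3 TKO, without overlap, but a difference between the pair was not shown (exact permutation p = 0.1, the smallest possible).

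Twist1, Twist2 and Prrx1, factors of embryonic mesenchyme, were low and did not pass the test. Twist1, on chromosome 12 from 33957671 to 33959829, had 0.338, 0.872 and 0.78 CPM in Control and 4.83, 2.87 and 0.235 in Pea3 TKO. Twist2, on chromosome 1 from 91801461 to 91848028, had 0.676, 0.187 and 0.26 CPM in Control and 2.73, 3.78 and 0.4699 in Pea3 TKO. For both genes Pea3 TKO replicates 1 and 2 were above every Control sample, and replicate 3 was within the Control range or below it. The log2 fold changes were 1.98 ± 0.98 for Twist1 (SE, adjusted p = 0.17) and 2.59 ± 0.94 for Twist2 (SE, adjusted p = 0.072). Without Pea3 TKO replicate 3 the adjusted p was 0.0505 for Twist1 and 0.039 for Twist2, so Twist2 passed there, as it did by DESeq2 on all samples (0.04). Prrx1, on chromosome 1 from 163245119 to 163313710, had 0.733, 0.436 and 4.16 CPM in Control and 3.49, 5.31 and 1.94 in Pea3 TKO. Its log2 fold change was 1.01 ± 0.85 (SE, adjusted p = 0.42), and 2.59 without Control replicate 3 (adjusted p = 0.068). Control replicate 3, the highest Control sample for Prrx1, was also the highest Control sample for the summed mesenchyme markers. The markers were high in Pea3 TKO replicates 1 and 2 and low in replicate 3, as were Zeb1, Twist1 and Twist2, and replicate 3 was also the lowest Pea3 TKO sample for Prrx1. Zeb2 and Snai1 stayed above every Control sample in replicate 3, where the markers summed to 19.6 CPM. Snai1 entered the test through its Pea3 TKO samples alone, so its values are a description. The part of mesenchymal transcripts in the values of Twist1, Twist2, Prrx1, Zeb1, Zeb2 and Snai1 was not tested beyond the covariate fit. In that fit Twist1 and Zeb1 had log2 fold changes of -0.05 and -1.34. Zeb2 passed there, and Twist2, Prrx1 and Snai1 did not.

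**Figure D3:**
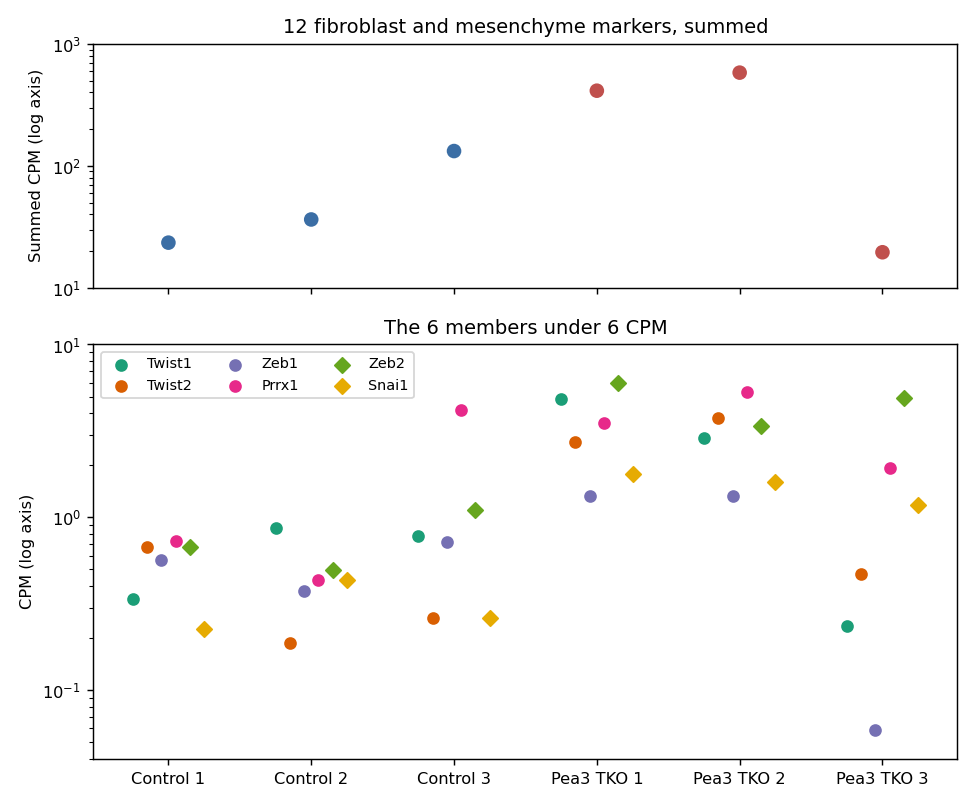
Upper panel, summed CPM of 12 fibroblast and mesenchyme markers (log axis) in each sample (x axis); lower panel, CPM of the 6 low members (log axis) in the same samples, circles for Twist1, Twist2, Zeb1 and Prrx1 and diamonds for Zeb2 and Snai1. In Pea3 TKO replicate 3 the markers are at 19.6 CPM, Twist1 is at 0.235 CPM and Zeb2 is at 4.93 CPM.

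Vim, on chromosome 2 from 13573927 to 13582826, had 90.4, 88.6 and 84.7 CPM in the Control replicates and 104, 101 and 87.3 in the Pea3 TKO replicates. Pea3 TKO replicate 3 lay inside the Control range, so the groups overlapped. The log2 fold change was 0.15 ± 0.12 (SE, adjusted p = 0.41, 95% interval -0.12 to 0.42), and no alternative brought it past the threshold. Cdh1, in contrast, went from 499 ± 63.2 to 1066 ± 38.3 CPM, a log2 fold change of 1.09 (adjusted p = 0.00041). The log2 ratio of Vim to Cdh1 reads was -2.66, -2.4 and -2.44 in Control and -3.41, -3.38 and -3.57 in Pea3 TKO. It was thus lower in every Pea3 TKO sample, with a difference of the means of -0.95 on the log2 scale (exact permutation p = 0.1, the smallest possible). In all, 5 such ratios were computed, and the remaining one, Twist1 to Twist2, overlapped between the groups (exact permutation p = 0.4). With Benjamini-Hochberg adjustment over the 5 ratios an exact p of 0.1 became 0.125.

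**Figure D4:**
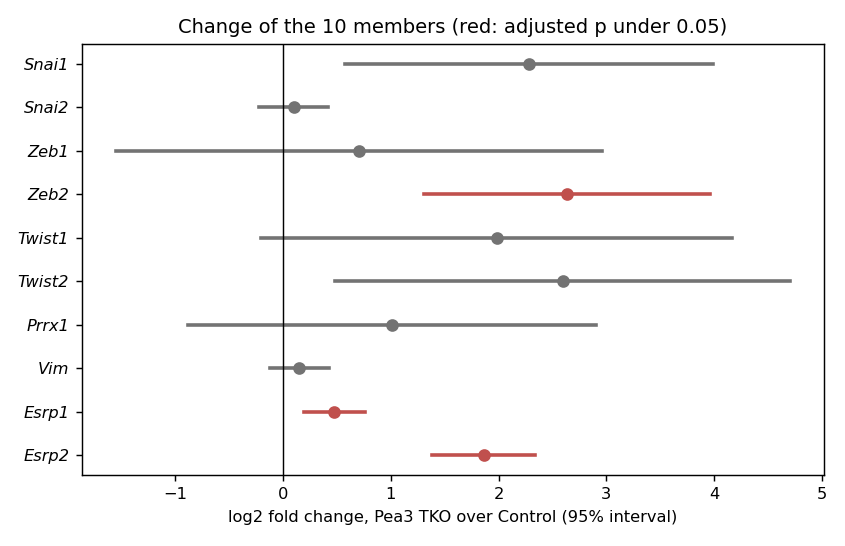
Log2 fold change of Pea3 TKO over Control (x axis, point) with its 95% interval (line) for the 10 members (y axis); red marks an adjusted p under 0.05. The intervals of Snai2 (-0.22 to 0.42) and Vim (-0.12 to 0.42) are narrow around 0, and those of Zeb1 (-1.55 to 2.96) and Twist1 (-0.2 to 4.17) are wide.

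Ordered by CPM per kb of merged exon in Control, the members were Snai2 (38.3 ± 2.9), Esrp1 (23.9 ± 1.14), Vim (18.5 ± 0.62), Esrp2 (11.9 ± 3.42), Twist1 (0.41 ± 0.18), Snai1 (0.19 ± 0.07), Prrx1 (0.16 ± 0.19), Twist2 (0.12 ± 0.083), Zeb1 (0.054 ± 0.017) and Zeb2 (0.038 ± 0.016). The lowest of the leading 4, Esrp2, was thus more than an order of magnitude above Twist1. Among the 6 low members each neighbouring pair overlapped in its range. The ranges of the leading 4 did not overlap on this scale, but their order depends on the length used. Over the longest coding transcript Vim had 40.1 ± 1.33, Esrp1 39 ± 1.87 and Snai2 38.3 ± 2.9 CPM per kb, and their ranges overlapped.

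Epithelial junction and polarity genes, among them known targets of Snail and Zeb repression such as Cdh1, were mostly higher in Pea3 TKO. Of the 33 epithelial junction and polarity genes, all tested, 26 passed as higher and 0 as lower, against 13.6% and 11.3% of all genes. Their median log2 fold change was 1.05, against 0.0094 for all genes. Cldn4, a tight junction claudin, went from 40.5 ± 9.3 to 135 ± 9.71 CPM (log2 fold change 1.73, adjusted p = 0.00022). The desmosome plaque gene Dsp went from 121 ± 15.4 to 328 ± 79 CPM (log2 fold change 1.44, adjusted p = 0.00062). Muc1, a membrane mucin, had 0.507, 0.187 and 0.325 CPM in Control and 28.6, 9.58 and 9.51 in Pea3 TKO. It entered the test through its Pea3 TKO samples alone, and 25 genes of the list were higher without it. Epcam, by contrast, had 1408 ± 88.2 and 1256 ± 73.4 CPM (log2 fold change -0.17, adjusted p = 0.31). Of the 18 genes with an E-box in the windows described above, 15 passed as higher and 3 (Ap1m2, Epcam and Lsr) did not pass, with a median log2 fold change of 0.985. The 3 genes whose windows held none (Cgn, Jup and Spint1) all passed as higher, with a median of 1.07. Among the windows printed, Crb3 went from 13.8 ± 2.2 to 30.8 ± 1.71 CPM, Cldn7 from 103 ± 25 to 219 ± 34.3 CPM, and Ap1m2 had 123 ± 11.8 and 148 ± 10.3 CPM (adjusted p = 0.13).

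Among 10 transcription factors that maintain the epithelial state, 4 passed as higher and 0 as lower, against 13.6% and 11.3% of all genes, with a median log2 fold change of 0.58. Elf3, an epithelial ETS factor, went from 80.5 ± 33.2 to 309.9 ± 38.5 CPM (log2 fold change 1.94, adjusted p = 0.00076). Grhl3, a grainyhead factor of surface epithelia, had 83.4, 30.4 and 33.6 CPM in Control and 211, 185 and 152 in Pea3 TKO (log2 fold change 1.89, adjusted p = 0.0042). Klf5 rose by a log2 fold change of 1.58 (adjusted p = 0.0073) and Ovol1, a repressor of Zeb genes in other epithelia, by 2.03 (adjusted p = 0.011). In Elf3, Grhl3, Klf5, Ovol1 and Esrp2 alike, Control replicate 1 was the highest Control sample and every Pea3 TKO sample was higher still. Without Control replicate 1 the log2 fold changes were 2.33 for Elf3, 2.51 for Grhl3, 2.13 for Klf5, 2.92 for Ovol1 and 2.12 for Esrp2. Grhl2, which is known to activate Esrp1, was not among those past the test (adjusted p = 0.3).

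**Figure D5:**
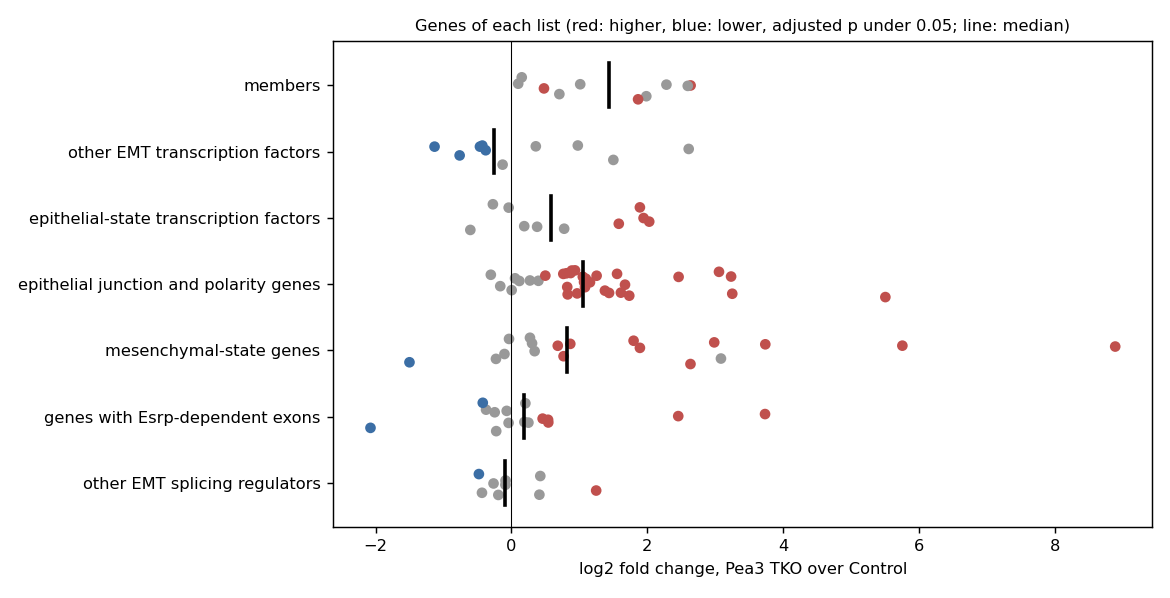
Log2 fold change of Pea3 TKO over Control (x axis) for every tested gene of each list (y axis); red and blue mark genes higher and lower at an adjusted p under 0.05, grey the others, and the black line is the list's median. The epithelial junction and polarity genes have a median of 1.05 with 26 of 33 in red, and the other EMT transcription factors have 5 genes in blue and none in red, where other scaling put 1 gene higher.

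Of 11 other transcription factors tied to EMT, 10 were tested, and 5 passed as lower and 0 as higher, against 11.3% and 13.6% of all genes, with a median log2 fold change of -0.26. With other scaling or another tool some passed as higher too: 1 higher and 5 lower with DESeq2 size factors, 1 and 4 with upper-quartile factors, and 2 and 5 by the DESeq2 test. Foxc1, a forkhead factor, lay just short of the threshold, at 210 ± 23.6 and 269.7 ± 10 CPM without overlap (log2 fold change 0.36, adjusted p = 0.051). The 5 lower genes were Hmga2, a chromatin protein that activates Snail and Twist genes (133 ± 30.2 to 60.6 ± 16.2 CPM, log2 fold change -1.13, adjusted p = 0.0059), Foxc2 (117 ± 15 to 68.9 ± 10.9 CPM, -0.76, adjusted p = 0.0069), Sox4 (-0.46, adjusted p = 0.026) and the E-proteins Tcf3 (-0.38, adjusted p = 0.023) and Tcf4 (-0.43, adjusted p = 0.035), which pair with Twist proteins. In the fits that left out 1 sample 2 to 4 passed, with 2 without Control replicate 2 or without Pea3 TKO replicate 2.

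Of the genes used as signs of a mesenchymal state, most of those that passed the test were higher in Pea3 TKO. Of 21 listed, 18 were tested, 10 passed as higher and 1, Mmp2, as lower, against 13.6% and 11.3% of all genes, with a median log2 fold change of 0.82. Of the 10, Tnc and S100a4 entered the test through their Pea3 TKO samples alone, and 8 were higher without them. These 8 include Mmp9, with 0.789, 0 and 0.39 CPM in Control and 8, 28.2 and 29.8 in Pea3 TKO. Its Control replicates 2 and 3 were under the filter level of 0.628 CPM, so it would not have been kept on Control samples alone. Acta2 and Cdh11 rose, from 5.51 ± 2.04 to 43.7 ± 12.9 CPM (log2 fold change 2.98, adjusted p = 0.00039) and from 12.8 ± 3.1 to 47.4 ± 8.09 CPM (log2 fold change 1.89, adjusted p = 0.00058). Tnc, a matrix glycoprotein gene, had 0, 0.0623 and 0 CPM in Control, 1 read in all, and 5.21, 16.3 and 18.4 CPM in Pea3 TKO. Mmp2, a gelatinase gene, fell from 356 ± 43 to 126 ± 18.4 CPM (log2 fold change -1.50, adjusted p = 0.00019). Acta2, Cdh11 and Tnc were above every Control sample in Pea3 TKO replicate 3 as well, at 35.9, 43 and 18.4 CPM, where the fibroblast and mesenchyme markers were lowest. The part of mesenchymal transcripts in the values of these genes was not tested. Cdh2, the gene of N-cadherin, ranged from 0.52 to 1.88 CPM over the 6 samples, and its log2 fold change of -0.04 had a 95% interval from -1.75 to 1.68 (adjusted p = 0.98).

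Genes with exons that depend on Esrp proteins were examined at the level of whole genes, since the counts hold no information on exons. Of 15 genes, 5 passed as higher and 2 as lower, against 13.6% and 11.3% of all genes, with a median log2 fold change of 0.19. Ctnnd1, the gene of p120 catenin, went from 133 ± 13.1 to 183 ± 12.3 CPM (log2 fold change 0.46, adjusted p = 0.021), and Cd44 from 1.7 ± 1.42 to 22.7 ± 11.4 CPM (3.73, adjusted p = 0.008). Fgfr2 itself had 259, 234 and 238 CPM in Control and 388, 415 and 258 in Pea3 TKO, with replicate 3 inside the Control range (log2 fold change 0.54, adjusted p = 0.043). Fgfr1 fell from 191 ± 39.3 to 45.2 ± 5.19 CPM (-2.07, adjusted p = 7.3e-05) and Map3k7 from 157 ± 9.54 to 117 ± 9.36 CPM (-0.42, adjusted p = 0.025). In the fits without 1 sample 2 to 5 of the 15 genes passed, with 2 without Control replicate 3 or without Pea3 TKO replicate 2.

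Of 9 other splicing regulators that act in EMT, 1 passed as higher and 1 as lower, a share of 22.2% against 25% of all genes, with a median log2 fold change of -0.09. Rbm47, an epithelial RNA-binding protein gene, went from 12.1 ± 4.72 to 28.6 ± 5.28 CPM (log2 fold change 1.25, adjusted p = 0.013), and Qk, the gene of Quaking, from 283 ± 25.2 to 203 ± 30.4 CPM (-0.48, adjusted p = 0.03). Mbnl2 (0.41, adjusted p = 0.057) and Srsf1 (-0.43, adjusted p = 0.054) did not pass. Without Control replicate 2 none of the 9 passed and without Pea3 TKO replicate 3 there were 4.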

How the data were processed

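RNA was taken from lacrimal gland buds isolated by laser capture, 3 Control and 3 Pea3 TKO libraries. The authors deposited raw read counts per gene symbol, 1 table per library, without normalization. The submitters' processing notes name bcl2fastq 2.17, STAR 2.5.2b, featureCounts 1.5.0-p3, DESeq and the build mm10, with no settings. The annotation and the strand setting are not given in the sources used here, and neither the amplification nor the library kit named in the labels is said to keep strand. Reads shared by near-identical or overlapping genes may have been dropped or split by the counting. Amplified reads are not independent molecules, so limits from counts cover counting error only.

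From the deposited counts, genes were kept with filterByExpr of edgeR 4.0.16 (R 4.3.3) at its defaults, which left 13087 of 23420, and were normalized by TMM. Both groups entered a quasi-likelihood test whose design held the condition alone, with p-values adjusted by Benjamini-Hochberg over all genes tested. Standard errors were derived from the log2 fold change and the F statistic. Ratios used counts plus 0.5 and an exact permutation test. Named are all members and up to 4 genes of each list with the smallest p, besides the targeted genes and label checks. Nfatc3, 1810019D21Rik, Grhl2, Fgfr2, Tcf4, Cdh2, Foxc1, Mmp9, Crb3, Cldn7, Ap1m2 and the genes that complete a count were added after their values were seen. The members and lists were chosen with earlier results of these data known. The scripts were tested on simulated data. Positions and lengths come from GENCODE M21, promoter windows from RefSeq (GRCm38.p6). Patj and Qki were matched as Inadl and Qk. Alternatives were DESeq2 1.42.0, other size factors and filters, a replicate block, covariates, and leaving out each sample. Libraries of a group differed by more than sampling noise (chi-square divided by its degrees of freedom, at least 15.5).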

Additional observations from a re-analysis of the deposited data

How the results depend on the processing

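Among the 10 members, Esrp2 passed under each of the 14 alternatives, and Zeb2 under all but the covariate for Y-linked expression. Under that covariate 778 genes passed in all, with 1 member, 1 epithelial-state transcription factor, 14 epithelial junction and polarity genes, 1 gene with Esrp-dependent exons, and 0 of the other EMT transcription factors and 0 of the other EMT splicing regulators. Only Pea3 TKO replicate 3 of its group carried Y-linked transcripts, so this fit rests mostly on that sample. It also turned the log2 fold changes of Snai2 to -0.16, Zeb1 to -3.12, Twist1 to -1.54 and Vim to -0.013, none of which passed. The covariate of mesenchyme markers, chosen after seeing the data, left 1949 genes and 2 members, ended the call of Esrp1 and turned Snai2 to -0.049, Zeb1 to -1.34 and Twist1 to -0.053. By DESeq2, 5 of the other EMT splicing regulators passed. Equal replicate numbers did not pair the samples (correlations of 0.14, -0.055 and 0.03 between their deviations from group means). With the replicate block 3191 genes passed, with 3 members, 3 other EMT transcription factors and 5 other EMT splicing regulators. Leaving out each sample in turn gave 1948 to 3344 genes and 2 to 4 members, with 1963 genes without Control replicate 2, 1948 without Control replicate 3 and 2072 without Pea3 TKO replicate 2. It gave 2 to 4 other EMT transcription factors, 4 to 5 epithelial-state factors, 21 to 26 junction and polarity genes, 8 to 11 mesenchymal-state genes, 2 to 5 genes with Esrp-dependent exons and 0 to 4 other splicing regulators. The ratios kept their direction under a pseudocount of 1 and without each sample. Upper-quartile factors moved the median log2 fold change of all genes by 0.038, the largest shift of any scaling tried. At these depths the members under 6 CPM rest on 1 to 94 reads per library, and their intervals are wide.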

Other observations

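The genes whose profile over the 6 samples lay closest to 3 of the members, measured as the root mean square difference of gene-centred log2(CPM + 0.5), were as follows. For Esrp1 they were Lpcat4 (0.0284), Tceal5 (0.0335) and Ccdc53 (0.0341). For Vim they were Tmem66 (0.0413), Galc (0.0423) and Pgap2 (0.0437), and for Snai2 they were Zfp68 (0.0201), Mtor (0.0415) and Vezt (0.0427). Lpcat4 went from 34.3 to 46.7 CPM on average.

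Red cell markers differed between libraries without following the groups. The 4 listed genes found in the files summed to 109, 25.2 and 18.6 CPM in the Control replicates and to 10, 92.8 and 177 CPM in the Pea3 TKO replicates, and Hba-a1 was at 0 in all 6.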
